A study of Mus musculus with 7 samples.

Results

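A set of 10 genes of the transforming growth factor beta (TGF-beta) superfamily were followed in skin tumours of mice by counting reads per gene in bulk RNA. They were taken from the 55423 genes of the count table by symbol, and the rule uses no measured value. The set holds Inhba and Inhbb, which encode the beta subunits of activins, Fst, which encodes the activin-binding antagonist follistatin, the TGF-beta isoforms Tgfb1, Tgfb2 and Tgfb3, the bone morphogenetic proteins Bmp2, Bmp4 and Bmp7, and the distant family member Gdf15. All 10 passed the filter on low counts. In both groups BRAFV600E was switched on in involucrin-expressing skin cells of mice 7 to 10 weeks old by tamoxifen painted on the skin, through a tamoxifen-dependent Cre (Ivl-CreERT2). The first group, Ivl:BRAFV600E, carried no SOX2 allele, and 2 of its 3 mice also carried a red fluorescent reporter (LSL-tdRFP) at Rosa26. The second group, Ivl:BRAFV600E-SOX2LSL, also carried a Rosa26 allele from which Cre releases SOX2 and EGFP, so the Ivl:BRAFV600E tumours do not control for EGFP. Involucrin marks keratinocytes of the suprabasal layers and those basal cells that are already committed to differentiate, so recombination was directed to both and to what grew from them. All mice were on a C57BL/6J background and the tumours, labelled as cutaneous squamous cell carcinoma, were taken at clinical endpoint. Each SOX2LSL tumour was collected fewer days after induction than each Ivl:BRAFV600E tumour, so genotype and time after induction cannot be told apart.

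Ligands of this family are secreted as dimers that bind a pair of type I and type II serine/threonine kinase receptors. TGF-beta isoforms and activins act mainly through SMAD2 and SMAD3, and BMPs mainly through SMAD1, SMAD5 and SMAD9. TGF-beta is stored in a latent complex and must be released before it can signal, and activins and BMPs are held in check by secreted antagonists. In normal epidermis TGF-beta restrains keratinocyte growth, activin A rises in wounds, and BMPs take part in the hair cycle and in differentiation.

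In each group 3 tumours were compared, with total counts per tumour between 23565432 and 31152826. Sox2 stood at 0.238 to 0.716 CPM (counts scaled to a common library total) in the Ivl:BRAFV600E tumours and at 155 to 182 CPM in the SOX2LSL tumours, and EGFP had no read in the former and 110 to 139 CPM in the latter. One tumour, SOX2LSL tumour 1, stood apart from the rest of its group. Its 10 keratinocyte markers summed to 21835 CPM against 63564 and 74021 CPM, a sum made up mostly of abundant keratins. The differentiation keratins Krt1 and Krt10 were at 1010 and 424 CPM there, whereas the epithelial cadherin Cdh1 (916 CPM) was the highest of the 6 tumours and Trp63, a regulator of basal keratinocytes, at 281 CPM lay within the range of the Ivl:BRAFV600E tumours (261 to 297 CPM). Its 8 macrophage markers to 584 CPM against 192 and 292 CPM. The log2 fold change of each of the 10 genes is therefore also given without it. Leaving it out raised the number of genes that edgeR called over the whole table from 954 to 1575. A gene that passes the test without this tumour is therefore 1 of a larger number. In bulk RNA, fewer cells of a type and less RNA per cell cannot be told apart.

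Inhba was the 1 gene of the 10 that passed the test across all genes, and it was higher in the SOX2LSL tumours. Over all 24433 genes tested, 954 were called, which is 3.90%, and 585 of these, 2.39% of the genes tested, were called higher. The median log2 fold change (SOX2LSL over Ivl:BRAFV600E) was 0.64 over the 10 genes and 0.04 over all genes tested. Between the groups, 4 of the 10 had no overlap in CPM, as did 34.2% of all genes tested. Of these, Inhba, Tgfb1 and Tgfb3 were higher in each SOX2LSL tumour, a pattern seen in 18.2% of all genes, and Bmp4 was lower in each, a pattern seen in 16.0%. DESeq2, which called 18.2% of the 20046 genes to which it gave an adjusted p, called 3 of the 9 genes of the set that had one, namely Inhba, Tgfb1 and Bmp4. DESeq2 gave Fst no adjusted p.

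**Figure D1:**
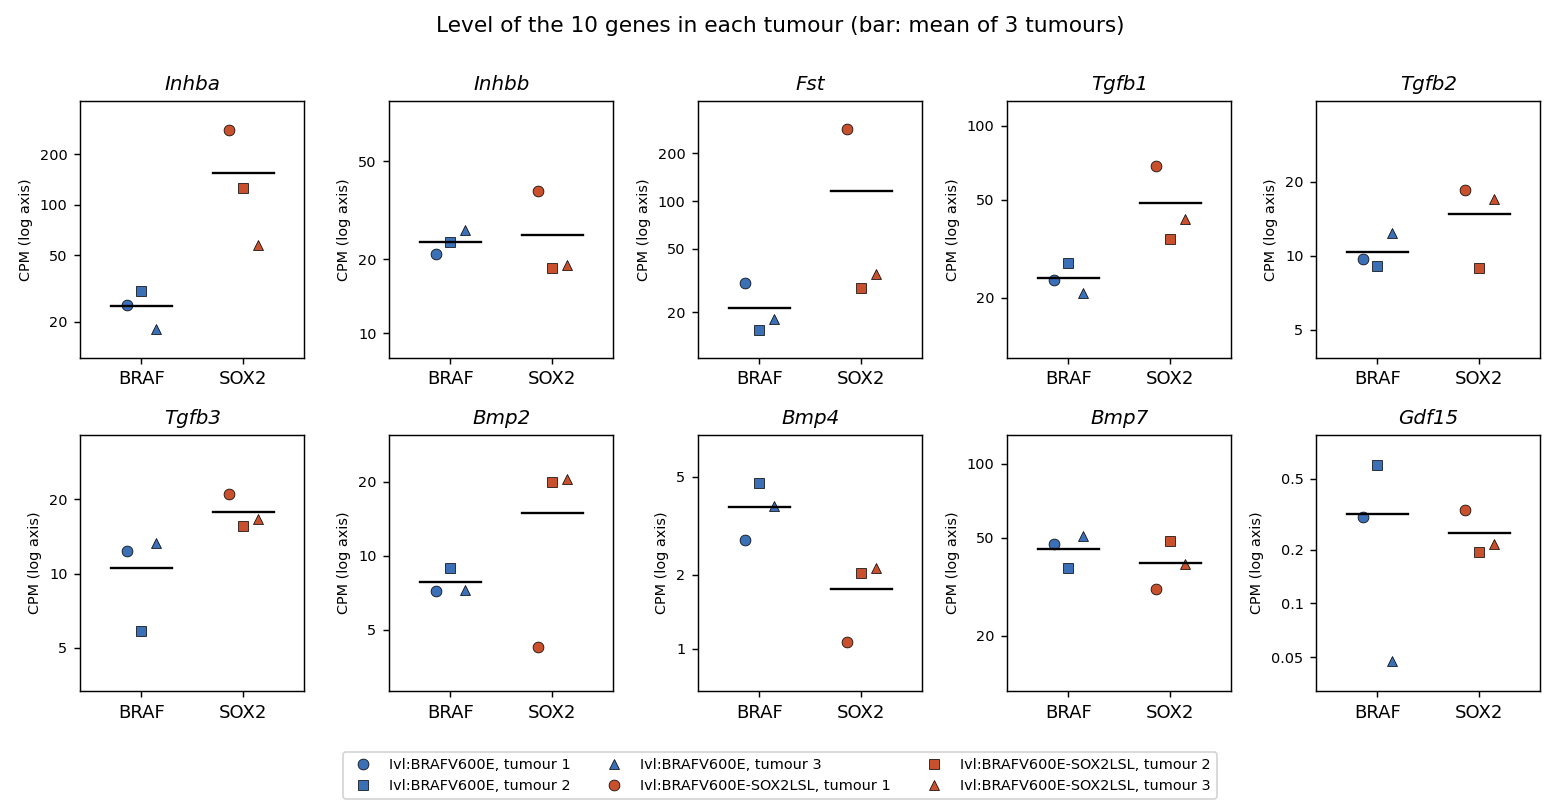
Level of each of the 10 genes in each tumour, in CPM after TMM scaling on a log axis whose range differs by panel. Points are tumours, bars are means of 3 tumours, BRAF is Ivl:BRAFV600E and SOX2 is Ivl:BRAFV600E-SOX2LSL. Inhba, Tgfb1 and Tgfb3 lie higher and Bmp4 lower in every SOX2LSL tumour, and SOX2LSL tumour 1 (circle) is the lowest of its group for the 3 BMP genes and the highest for the other 7.

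The DNA just upstream of the starts of Inhba, Tgfb1 and Bmp4 is shown because these are the genes that at least 1 of the 2 count models called. Each run holds the 250 bases before the annotated start in RefSeq (GRCm38.p6), read 5′ to 3′ on the strand of the gene: chr13:16011601-16011850 on the + strand for Inhba, chr7:25686752-25687001 on the + strand for Tgfb1 and chr14:46390670-46390919 on the - strand for Bmp4. Capitals mark the letters CTTTGT and TATAAA.
Inhba: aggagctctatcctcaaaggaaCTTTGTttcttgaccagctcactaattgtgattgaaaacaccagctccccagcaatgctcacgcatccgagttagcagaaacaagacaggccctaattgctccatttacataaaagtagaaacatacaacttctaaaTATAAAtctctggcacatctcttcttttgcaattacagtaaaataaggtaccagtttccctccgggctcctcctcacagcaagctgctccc
Tgfb1: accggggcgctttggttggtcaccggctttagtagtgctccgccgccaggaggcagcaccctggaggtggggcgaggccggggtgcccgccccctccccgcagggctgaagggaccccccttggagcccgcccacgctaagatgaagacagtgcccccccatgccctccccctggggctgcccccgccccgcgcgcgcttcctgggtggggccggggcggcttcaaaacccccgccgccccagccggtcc
Bmp4: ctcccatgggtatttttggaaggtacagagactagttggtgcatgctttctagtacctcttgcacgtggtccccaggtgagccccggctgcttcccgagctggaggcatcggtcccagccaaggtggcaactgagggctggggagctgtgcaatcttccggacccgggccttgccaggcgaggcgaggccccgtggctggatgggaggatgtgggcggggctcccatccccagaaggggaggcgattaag

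These windows differed in base composition. G and C made up 43.2% of the Inhba window, 75.2% of the Tgfb1 window and 63.2% of the Bmp4 window, against a median of 52.4% over the 32851 upstream windows of the same table. Both strands were searched for the letters of 4 motifs, some of which can share bases. The SOX letters, ACAAAG or ACAATG with CTTTGT or CATTGT on the other strand, occurred once in the Inhba window, starting 228 bases before the start, and 25.2% of all windows held them. The TATA letters, TATAAA with TTTATA on the other strand, occurred once in the Inhba window, starting 91 bases before the start, and 12.4% of all windows held them. The AP-1 letters, TGAGTCA with TGACTCA on the other strand, were present in 4.46% of all windows, and the SMAD letters, CAGAC with GTCTG on the other strand, in 42.2%. Both were in none of these 3 windows. None of the 4 motifs was in the Tgfb1 or the Bmp4 window. A match of letters is a description and no evidence of binding. Entries were found for 6 of the 10 genes, and Fst, Tgfb3, Bmp2 and Bmp7 had none.

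Among the activin genes, Inhba was higher in the SOX2LSL tumours, and Inhbb and Fst did not pass the test. Inhba (ENSMUSG00000041324, chr13:16011851-16031621, + strand, GRCm38) encodes the beta A subunit of activin A. It measured 25.2, 30.7 and 18.2 CPM in the Ivl:BRAFV600E tumours and 278, 126 and 57.1 CPM in the SOX2LSL tumours. The lowest SOX2LSL tumour stood above the highest Ivl:BRAFV600E tumour, and the 3 SOX2LSL tumours were spread far more widely than the others. The means were 24.7 ± 6.25 and 154 ± 113 CPM (SD, n = 3 each), a ratio of 6.22, and the fitted log2 fold change was 2.64 (SE 0.55, edgeR quasi-likelihood test with Benjamini-Hochberg adjustment over all genes, adjusted p = 0.0489). Without SOX2LSL tumour 1 the log2 fold change of Inhba was 1.89 and the call held (edgeR, adjusted p = 0.0248). The call lay close to the threshold. It was lost without Ivl:BRAFV600E tumour 1, 2 or 3 or SOX2LSL tumour 2 (edgeR, adjusted p = 0.181, 0.133, 0.121 and 0.0831), with limma-voom (adjusted p = 0.0678) and with sex in the edgeR model (adjusted p = 0.172), while the log2 fold change stayed between 1.89 and 3.04 in every fit run.

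Inhbb (chr1:119415465-119422248, - strand), the beta B subunit, had 20.9, 23.4 and 26.2 CPM in the Ivl:BRAFV600E tumours and 37.8, 18.4 and 19.0 CPM in the SOX2LSL tumours. SOX2LSL tumours 2 and 3 stood below all Ivl:BRAFV600E tumours, and tumour 1 stood above them. The log2 fold change was 0.10 (SE 0.29, edgeR adjusted p = 0.867), and its sign turned with upper-quartile scaling (-0.02), with sex in the model (-0.06) and without SOX2LSL tumour 1 (-0.33).

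Fst (chr13:114452290-114458951, - strand) had 30.5, 15.5 and 18.2 CPM in the Ivl:BRAFV600E tumours and 283, 28.4 and 34.9 CPM in the SOX2LSL tumours. The groups overlapped, and 1 tumour carried most of the difference. The log2 fold change was 2.43 (SE 0.89, edgeR adjusted p = 0.148), and 0.56 without SOX2LSL tumour 1 (edgeR adjusted p = 0.288). The annotated gene Gm47040 overlaps exons of Fst on the opposite strand, and since the strand setting of the counting was not given, reads of the pair may be mixed.

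The balance between the 2 subunits differed in each tumour of one group from each of the other. Scaled by exon length (CPM per kilobase of the union of exons), Inhba stood at 0.804, 0.875 and 0.463 times Inhbb in the Ivl:BRAFV600E tumours, so that the B subunit was the more abundant in all 3. In the SOX2LSL tumours the same ratio was 4.90, 4.56 and 2.00, so that the A subunit was the more abundant in all 3. The difference of the mean log2 ratios was 2.37 (exact two-sided permutation test, p = 0.1, the smallest that 3 against 3 tumours allow, and 0.333 after Benjamini-Hochberg adjustment over the 10 ratios and shares tested). The ratio of Inhbb to Fst also separated the groups, by a narrow margin, at 0.740, 1.62 and 1.56 against 0.144, 0.700 and 0.587 (log2 difference -1.66, exact permutation p = 0.1, adjusted 0.333). The summed subunits relative to follistatin did not separate them. That ratio was 1.34, 3.05 and 2.28 in the Ivl:BRAFV600E tumours and 0.849, 3.89 and 1.76 in the SOX2LSL tumours, a log2 difference of -0.22 (exact permutation p = 0.8, adjusted 0.889). Inhba alone relative to Fst gave a log2 difference of 0.71 (exact permutation p = 0.6, adjusted 0.75), with ratios of 0.595, 1.42 and 0.722 against 0.705, 3.19 and 1.18. Of these activin ratios, only that of the summed subunits to Fst was planned. The other ratios were not recomputed with a tumour left out.

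**Figure D2:**
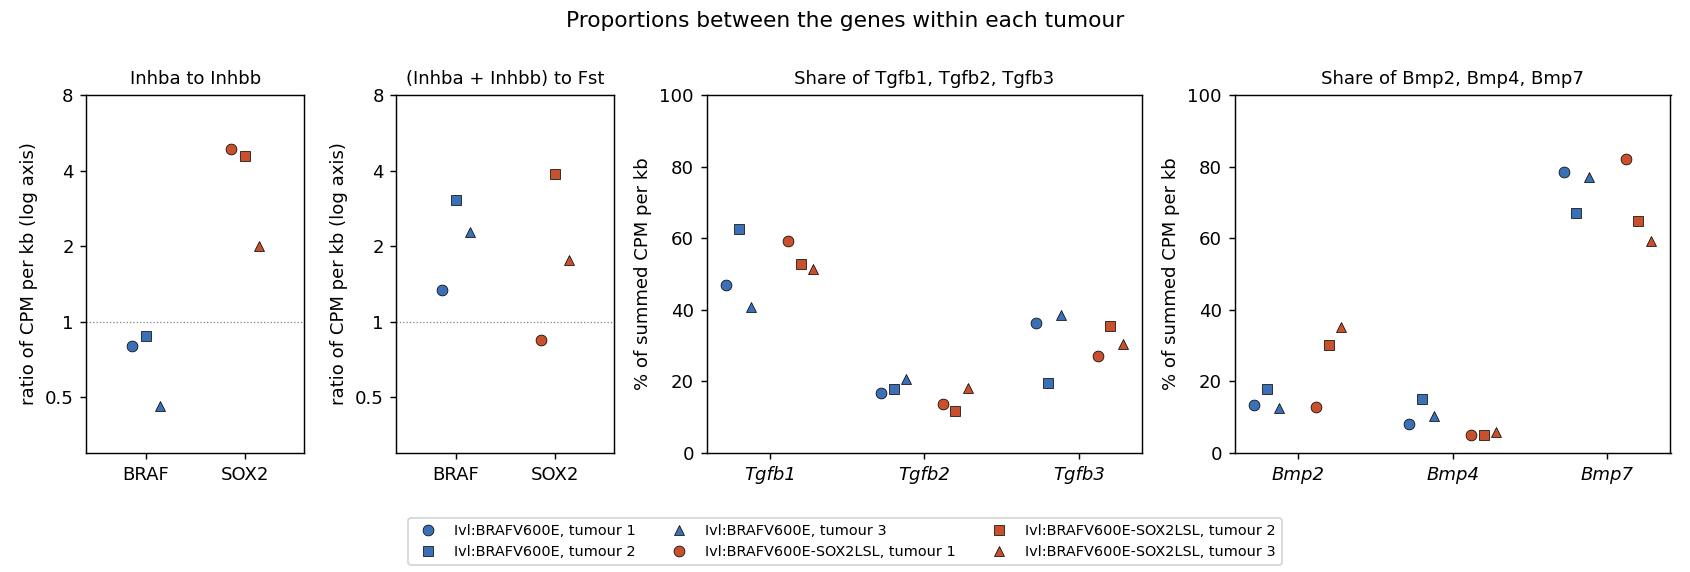
Proportions between the genes within each tumour: ratios of CPM per kilobase on a log axis (left, dotted line at equal levels) and shares of the summed CPM per kilobase in percent (right), with blue for Ivl:BRAFV600E and orange for Ivl:BRAFV600E-SOX2LSL. The ratio of Inhba to Inhbb is below 1 in the 3 Ivl:BRAFV600E tumours and at 2.00 or above in the 3 SOX2LSL tumours, whereas the ratio of both subunits to Fst overlaps between the groups, and the share of Bmp4 is lower in every SOX2LSL tumour.

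No TGF-beta isoform passed the edgeR test, and the 3 log2 fold changes were all above 0. Tgfb1 (chr7:25687002-25705077, + strand), the isoform best known for acting on immune cells and stroma, had 23.7, 27.9 and 21.0 CPM in the Ivl:BRAFV600E tumours and 68.7, 34.8 and 41.9 CPM in the SOX2LSL tumours. Its groups did not overlap, with SOX2LSL tumour 1 again the highest. The means were 24.2 ± 3.45 and 48.4 ± 17.9 CPM (SD, n = 3 each), a ratio of 2.00, and the log2 fold change of 1.0 (SE 0.26) missed the threshold (edgeR, adjusted p = 0.0776). It was called by DESeq2 (adjusted p = 0.0122) and by edgeR with no filter on low counts (adjusted p = 0.0459), and without SOX2LSL tumour 1 the log2 fold change was 0.66 (edgeR, adjusted p = 0.0572).

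Tgfb3 (chr12:86056745-86079041, - strand) had 12.3, 5.82 and 13.4 CPM in the Ivl:BRAFV600E tumours and 21.0, 15.6 and 16.6 CPM in the SOX2LSL tumours. The groups were apart by a narrow margin, and the log2 fold change was 0.76 (SE 0.32, edgeR adjusted p = 0.187), and 0.62 without SOX2LSL tumour 1. Tgfb2 (chr1:186622792-186705989, - strand) had 9.65, 9.10 and 12.3 CPM against 18.4, 8.88 and 17.0 CPM, and SOX2LSL tumour 2 was the lowest of the 6 tumours. Its log2 fold change was 0.51 (SE 0.29, edgeR adjusted p = 0.311), and 0.32 without SOX2LSL tumour 1. Exons of Tgfb2 (Gm29491) and of Tgfb3 (Gm37804 and Gm48008) are overlapped by annotated genes on the opposite strand.

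The mix of isoforms overlapped between the groups. Of the summed CPM per kilobase of the 3 isoforms, Tgfb1 made up 46.9, 62.7 and 40.7% in the Ivl:BRAFV600E tumours and 59.2, 52.8 and 51.4% in the SOX2LSL tumours (difference 4.37 percentage points, exact permutation p = 0.5, adjusted 0.75). The share of Tgfb2 was 16.6, 17.8 and 20.8% against 13.8, 11.7 and 18.2% (difference -3.82 points, exact permutation p = 0.3, adjusted 0.6). Tgfb3 took 36.4, 19.5 and 38.6% against 27.0, 35.4 and 30.4% (difference -0.55 points, exact permutation p = 0.9, adjusted 0.9). Without SOX2LSL tumour 1 the differences were 1.99, -3.43 and 1.44 points for Tgfb1, Tgfb2 and Tgfb3. Tgfb1 was the largest of the 3 shares in all 6 tumours.

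No BMP gene passed the edgeR test with all 6 tumours, and the signs of their log2 fold changes differed. Bmp4 (chr14:46383520-46390669, - strand), a ligand of dermal and hair follicle cells, had 2.76, 4.71 and 3.80 CPM in the Ivl:BRAFV600E tumours and 1.06, 2.04 and 2.13 CPM in the SOX2LSL tumours. It was lower in every SOX2LSL tumour, at 2.15 times less by the means. The log2 fold change of -1.11 (SE 0.36) missed the threshold of edgeR (adjusted p = 0.119) and passed that of DESeq2 (adjusted p = 0.0347). Without SOX2LSL tumour 1 it was -0.85 (edgeR, adjusted p = 0.159). Between 38 and 102 reads per tumour lay behind these values, and the annotated gene Gm15217 overlaps exons of Bmp4 on the opposite strand.

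Bmp2 (chr2:133552159-133562885, + strand) had 7.16, 8.92 and 7.27 CPM in the Ivl:BRAFV600E tumours and 4.25, 19.9 and 20.5 CPM in the SOX2LSL tumours. The SOX2LSL tumours lay on both sides of the Ivl:BRAFV600E tumours, with tumour 1 below and tumours 2 and 3 above all of them. With all 6 tumours the log2 fold change was 0.94 (SE 0.53, edgeR adjusted p = 0.306). Without SOX2LSL tumour 1 it was 1.38 and passed the threshold (edgeR adjusted p = 0.00853), and in the other 5 fits that left out a tumour it did not.

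Bmp7 (chr2:172868012-172940321, - strand), a ligand made by many epithelia, had 47.3, 37.7 and 50.7 CPM against 30.9, 48.4 and 39.1 CPM. The groups overlapped, with a log2 fold change of -0.20 (SE 0.20, edgeR adjusted p = 0.563), and -0.05 without SOX2LSL tumour 1. It was the most abundant of the 3 BMP genes per kilobase in all 6 tumours. Its share of their sum was 78.4, 67.1 and 77.2% in the Ivl:BRAFV600E tumours and 82.2, 64.9 and 59.1% in the SOX2LSL tumours (difference -5.48 points, exact permutation p = 0.6, adjusted 0.75). The share of Bmp4 was 8.19, 15.0 and 10.3% against 5.05, 4.90 and 5.76%, lower in every SOX2LSL tumour (difference -5.94 points, exact permutation p = 0.1, adjusted 0.333). The share of Bmp2 was 13.4, 17.9 and 12.5% against 12.8, 30.2 and 35.1% (difference 11.4 points, exact permutation p = 0.3, adjusted 0.6). Without SOX2LSL tumour 1 the differences were -12.2 points for Bmp7, -5.84 for Bmp4 and 18.0 for Bmp2.

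Gdf15 (chr8:70629393-70632456, - strand), a stress-induced cytokine that signals through GFRAL, was near the limit of detection. It had 9, 13 and 1 reads in the Ivl:BRAFV600E tumours and 12, 6 and 6 reads in the SOX2LSL tumours, or 0.307, 0.601 and 0.0475 CPM against 0.336, 0.194 and 0.217 CPM. A difference in Gdf15 was not detectable at this depth (log2 fold change -0.34, SE 0.78, edgeR adjusted p = 0.817, and -0.62 without SOX2LSL tumour 1).

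Levels of different genes were compared per kilobase of exon. In the Ivl:BRAFV600E tumours Bmp7 led with 11.3 ± 1.68 CPM per kilobase (SD, n = 3), followed by Inhbb with 5.52 ± 0.63, Tgfb1 with 4.80 ± 0.68, Fst with 4.66 ± 1.74 and Inhba with 3.87 ± 0.98. Tgfb3 with 3.11 ± 1.21, Bmp2 with 2.19 ± 0.28, Tgfb2 with 1.79 ± 0.30, Bmp4 with 1.67 ± 0.43 and Gdf15 with 0.17 ± 0.15 came after them. Of neighbours in this order, Bmp7 and Inhbb, and Bmp4 and Gdf15, had ranges that did not overlap, and the others were not separated by their spread. In the SOX2LSL tumours Fst (25.2 ± 31.7) and Inhba (24.1 ± 17.7) came first, ahead of Bmp7 (9.82 ± 2.17), Tgfb1 (9.60 ± 3.55) and Inhbb (5.90 ± 2.59). The first place of Fst rested on SOX2LSL tumour 1, at 61.7 CPM per kilobase. In tumours 2 and 3 Fst, at 6.19 and 7.60, lay below Inhba (19.8 and 8.94), Tgfb1 (6.89 and 8.30) and Bmp7 in both, by exon-union length. The ranges of these 5 overlapped from neighbour to neighbour, and only Tgfb2 (2.55 ± 0.89), Bmp4 (0.78 ± 0.26) and Gdf15 (0.13 ± 0.04) at the end of the order were set apart from each other. With the longest transcript as the length, Bmp7 stayed first in the Ivl:BRAFV600E tumours, while Tgfb1 and Fst moved ahead of Inhbb there, and Tgfb1 moved ahead of Bmp7 in the SOX2LSL tumours. By that length Fst lay above Inhba and Bmp7 in SOX2LSL tumour 3 (11.9 against 8.94 and 10.7 CPM per kilobase). The length of Fst is then 2921 in place of 4589 bases, so every ratio to Fst falls by the same factor in all tumours, and the log2 differences of those ratios between the groups stay as they are.

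The rest of the pathway was read from lists of genes by role, and a gene can stand in more than 1 list. Among 24 other ligands of the family, 16 were tested and with all 6 tumours none was called by edgeR or DESeq2, with none at an unadjusted p under 0.05 and a median log2 fold change of 0.16. The 2 with the highest mean CPM, with no scaling by length, were Bmp3, an atypical BMP that antagonises others, and Gdf10, a close relative of it. Bmp3 had 7.98, 8.27 and 4.23 CPM in the Ivl:BRAFV600E tumours and 4.59, 22.8 and 22.2 CPM in the SOX2LSL tumours (log2 fold change 1.27, SE 0.58, edgeR adjusted p = 0.220). As for Bmp2, SOX2LSL tumours 2 and 3 stood above all others and tumour 1 did not, and without tumour 1 the log2 fold change of Bmp3 was 1.72 and passed the threshold (edgeR adjusted p = 0.0188). Gdf10 had 4.91, 1.71 and 9.27 CPM against 0.811, 19.4 and 0.975 CPM, and its log2 fold change was 0.41 (SE 1.20, edgeR adjusted p = 0.858). SOX2LSL tumour 2 set that sign: without it the log2 fold change of Gdf10 was -2.56 (edgeR adjusted p = 0.118), and over the 6 fits with 5 tumours it ranged from -2.56 to 1.08.

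Of 21 receptors and co-receptors, 19 were tested, and 1 was called, higher, where 2.39% of all genes were. Their median log2 fold change was 0.71, with 7 genes higher and 3 lower in every SOX2LSL tumour, where the shares over all genes are 18.2% and 16.0%. The gene called was Hjv, which encodes the BMP co-receptor hemojuvelin of muscle and liver, at 0 to 0.0475 CPM in the Ivl:BRAFV600E tumours and at 5.82, 7.22 and 1.16 CPM in the SOX2LSL tumours (edgeR adjusted p = 0.0238, called in 2 of 6 fits that left out a tumour, limma-voom adjusted p = 0.105). The Ivl:BRAFV600E tumours had at most a few reads, so no fold is given. Skeletal muscle markers moved with it: 9 of 10 were called higher, where 2.39% of all genes were. Their sum was 4.47 to 7.51 CPM against 229 to 1083 CPM, and Myh4, a fast myosin heavy chain, was at 0 in all 3 Ivl:BRAFV600E tumours. The part of muscle RNA in the change of Hjv was not tested. The TGF-beta receptors Tgfbr1 and Tgfbr2, chosen after their values were seen, missed the edgeR threshold and passed that of DESeq2. DESeq2 called 5 receptors, where it called 18.2% of all genes. Tgfbr1, Tgfbr2, Hjv and Acvr1 had log2 fold changes above 0, and Bmpr1a had one below 0. Acvr1 and Bmpr1a are both type I receptors for BMPs, and they differed in opposite directions. Acvr1 was higher in every SOX2LSL tumour (log2 fold change 0.71, SE 0.17, edgeR adjusted p = 0.0650, DESeq2 adjusted p = 0.0122). So was Bmpr1b, at 0 to 1.23 CPM against 2.17 to 5.23 CPM (log2 fold change 2.31, SE 0.95, edgeR adjusted p = 0.185). Bmpr1a was lower in every SOX2LSL tumour, at 116 to 139 CPM against 166 to 185 CPM (log2 fold change -0.44, SE 0.13, edgeR adjusted p = 0.0940, DESeq2 adjusted p = 0.0231), and an annotated gene on the opposite strand overlaps its exons. Tgfbr2, the type II receptor that binds TGF-beta, had 111, 78.5 and 115 CPM against 296, 190 and 179 CPM (log2 fold change 1.13, SE 0.24, edgeR adjusted p = 0.0522, DESeq2 adjusted p = 0.00141). Tgfbr1, its type I partner, had 40.9, 41.8 and 37.5 CPM against 103, 71.9 and 56.0 CPM (log2 fold change 0.95, SE 0.22, edgeR adjusted p = 0.0611, DESeq2 adjusted p = 0.00581). Without SOX2LSL tumour 1 both TGF-beta receptors passed the edgeR threshold, with log2 fold changes of 0.86 for Tgfbr2 (adjusted p = 0.0351) and 0.67 for Tgfbr1 (adjusted p = 0.0344). That fit called 1575 genes, against 954 with all tumours.

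Of 16 further antagonists, 15 were tested, none was called by edgeR and 3 had an unadjusted p under 0.05. DESeq2 called 3 of the 15, Grem1 among them, a share near the 18.2% of all genes that it called. Their median log2 fold change was 0.84. The 2 with the highest mean CPM were Fstl1, a follistatin-like protein of mesenchymal cells, with 65.0, 34.5 and 114 CPM against 262, 117 and 89.8 CPM (log2 fold change 1.14, SE 0.52, edgeR adjusted p = 0.225, and 0.54 without SOX2LSL tumour 1), and Twsg1, a BMP-binding protein, with 84.2, 104 and 120 CPM against 84.9, 102 and 95.3 CPM (log2 fold change -0.13, SE 0.16, edgeR adjusted p = 0.645). Grem1, a secreted BMP antagonist named here after its values were seen, had 3.65, 1.71 and 4.04 CPM against 106, 3.53 and 18.2 CPM (log2 fold change 3.76, SE 1.14, edgeR adjusted p = 0.102), and SOX2LSL tumour 1, the highest for Fst, was the highest for it too. Without that tumour the log2 fold change of Grem1 was 1.79 (edgeR adjusted p = 0.162).

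All 13 genes for the storage and release of TGF-beta and BMPs were tested, and 1 was called, higher, where 2.39% of all genes were. The gene was Itgb6, which encodes the epithelial integrin subunit beta 6 whose heterodimer with the alpha V subunit releases active TGF-beta. It had 20.2, 31.1 and 29.7 CPM in the Ivl:BRAFV600E tumours and 49.2, 59.0 and 51.8 CPM in the SOX2LSL tumours. SOX2LSL tumour 1 was the lowest of its group here, and the groups did not overlap (log2 fold change 0.98, SE 0.19, edgeR adjusted p = 0.0410, called in 1 of 6 fits that left out a tumour), and the call was lost with upper-quartile scaling (adjusted p = 0.0530) and with sex in the edgeR model (adjusted p = 0.103). The median log2 fold change of this list was 0.46, and 6 of its 13 genes were higher in every SOX2LSL tumour, as were 18.2% of all genes, and none was lower in every one, as were 16.0% of all genes.

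Among the SMADs and their regulators, edgeR called 1 of 14, higher, against 3.90% of all genes. DESeq2 called 6, against 18.2% of all genes, and the median log2 fold change was 0.22. In every SOX2LSL tumour 6 of the 14 were higher (Smad1, Smad3, Smad4, Smad5, Smad7 and Tgif1) and 1 lower, where the shares over all genes are 18.2% and 16.0%. The gene called by edgeR was Smad7, an inhibitory SMAD that both branches of the pathway induce, with 42.6, 59.7 and 50.2 CPM against 93.9, 105 and 77.2 CPM. Its groups did not overlap (log2 fold change 0.86, SE 0.18, edgeR adjusted p = 0.0467, called in 1 of 6 fits that left out a tumour), and the call was lost with limma-voom (adjusted p = 0.0505), upper-quartile scaling (adjusted p = 0.0579) and sex in the edgeR model (adjusted p = 0.126). Of 12 genes known as SMAD2/3 targets, 2 were called, both higher, Tgfbi and Smad7, where 3.90% of all genes were called, and the median was 0.85. In every SOX2LSL tumour 5 of the 12 were higher (Tgfbi, Smad7, Ltbp2, Fn1 and Tgfb1i1), as were 18.2% of all genes, and 1 was lower. The log2 fold change was above 0 for 8 of the 12 and below 0 for 4 (Cdkn1a, Ccn2, Cdkn2b and Skil, between -0.29 and -0.21). The gene lower in every SOX2LSL tumour was Cdkn1a, a cell cycle inhibitor whose exons an opposite-strand gene overlaps. Tgfbi, a matrix protein induced by TGF-beta, had 103, 121 and 133 CPM against 323, 428 and 309 CPM (log2 fold change 1.57, SE 0.18, edgeR adjusted p = 0.0131, called in 4 of 6 fits that left out a tumour). Of 11 genes known as SMAD1/5 targets, Smad7 was the 1 called, and the median was -0.20, with 2 of the 11 higher and 2 lower in every SOX2LSL tumour, shares near those over all genes (18.2% and 16.0%). The BMP targets Id1 and Hey1, a transcriptional repressor, were picked from their values and differed in opposite directions. Id1 had 68.0, 97.1 and 76.1 CPM against 41.3, 60.9 and 57.5 CPM (log2 fold change -0.60, SE 0.20, edgeR adjusted p = 0.125). Hey1 had 1.53, 0.878 and 1.85 CPM against 2.69, 2.27 and 3.18 CPM (log2 fold change 0.93, SE 0.35, edgeR adjusted p = 0.153).

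**Figure D3:**
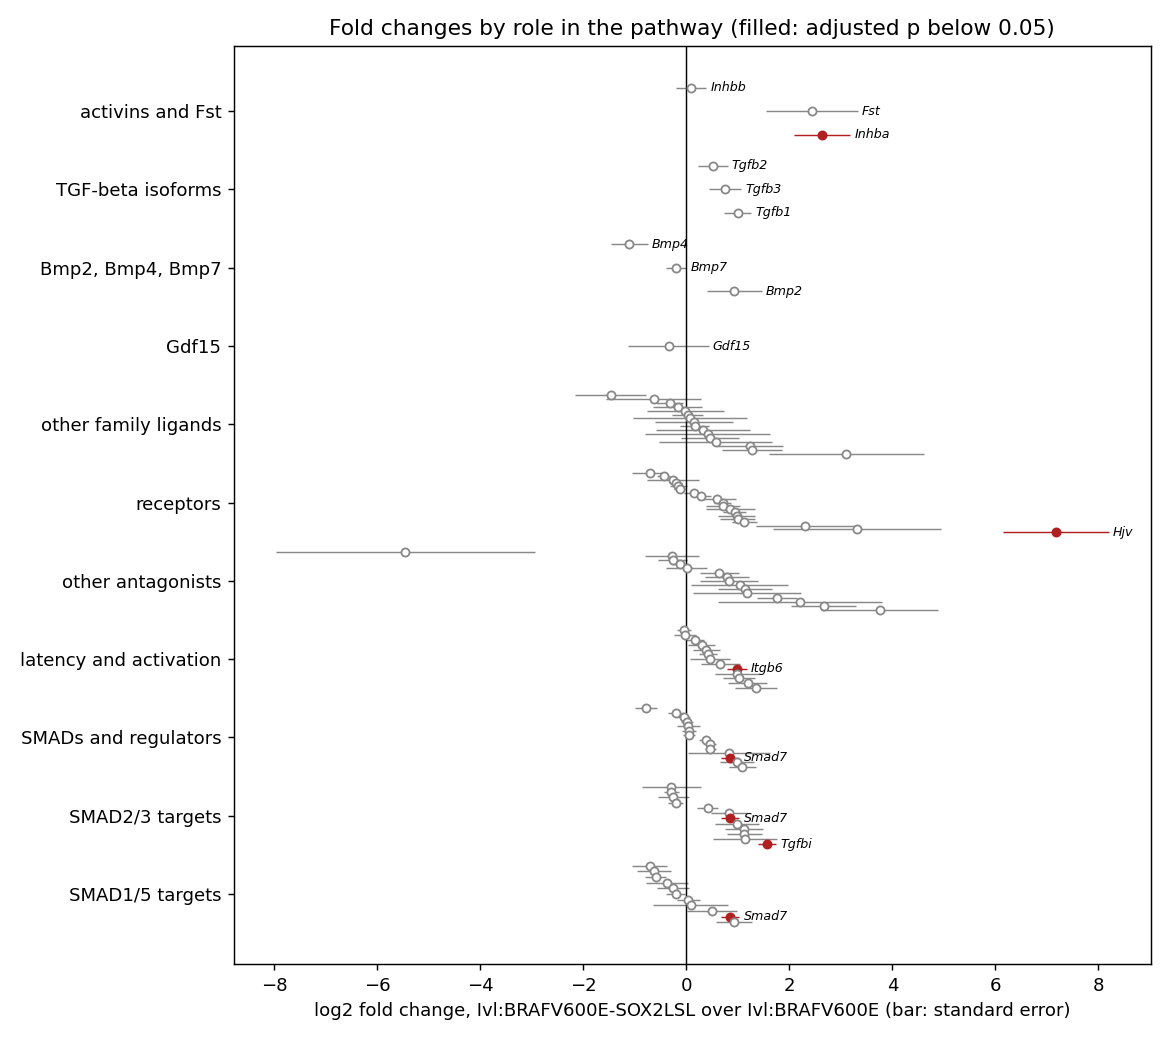
Log2 fold change, Ivl:BRAFV600E-SOX2LSL over Ivl:BRAFV600E, of each tested gene by its role in the pathway, with the standard error as a bar. Filled red points have an edgeR adjusted p below 0.05, and the vertical line marks 0. The called genes (Inhba, Hjv, Itgb6, Smad7 and Tgfbi, with Smad7 in 3 lists) all lie to the right of 0. The gene farthest left is Sost, whose reads came from 1 Ivl:BRAFV600E tumour.

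The summed markers of macrophages and of keratinocytes did not overlap between the groups, while those of fibroblasts, endothelial cells and adipocytes did. Macrophage markers summed to 73.6 to 157 CPM in the Ivl:BRAFV600E tumours and to 192 to 584 CPM in the SOX2LSL tumours, and none was at 0. All 8 had a log2 fold change above 0, 6 were higher in every SOX2LSL tumour, 2 (Ptprc and Csf1r) were called higher by edgeR and 6 were called by DESeq2. Over all genes, 18.2% were higher in every SOX2LSL tumour, edgeR called 2.39% higher, and DESeq2 called 18.2% in either direction. Both edgeR calls were lost with limma-voom (adjusted p = 0.0512 and 0.0555) and with sex in the model (adjusted p = 0.0775 and 0.0717). The fibroblast sum was 775 to 5117 CPM against 3980 to 8355 CPM, with 0 of 8 called by edgeR, 2 at an unadjusted p under 0.05 and 2 called by DESeq2. Of these 8 genes, 7 had a log2 fold change above 0, with a median of 1.03. The keratinocyte sum was 110300 to 176940 CPM against 21835 to 74021 CPM, with 0 of 10 called by edgeR, 5 at an unadjusted p under 0.05 and 3 called by DESeq2. In this list 7 of the 10 genes had a log2 fold change below 0 and 3 above 0, with a median of -0.74. Krt1, Krt10, Krt16 and Dsp, 4 of the 10, were lower in every SOX2LSL tumour, as were 16.0% of all genes. The log2 fold changes of Krt14, Krt6a and Ivl were -0.65, -1.02 and -0.64, with groups that overlapped. Cdh1 was higher in every SOX2LSL tumour, at 765 to 916 CPM against 638 to 667 CPM, and the log2 fold changes of Krt5 and Trp63 were 0.29 and 0.10. Endothelial sums overlapped, at 155 to 170 CPM against 158 to 192 CPM. Adipocyte sums overlapped too, at 17.5 to 44.2 CPM against 11.2 to 80.2 CPM, and their defining gene Adipoq was at 0 in all 3 Ivl:BRAFV600E tumours and in SOX2LSL tumour 2. Of the 6 adipocyte genes, 5 had a log2 fold change above 0, with a median of 4.24. In that list 2 genes had an unadjusted p under 0.05, and none was called by edgeR or DESeq2. The SOX2LSL tumour with the most Inhba, Fst and Tgfb1 was also the one with the largest macrophage and fibroblast sums and the smallest keratinocyte sum. The part of cell mixture in the changes of Inhba, Tgfb1 and Bmp4 was not tested.

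**Figure D4:**
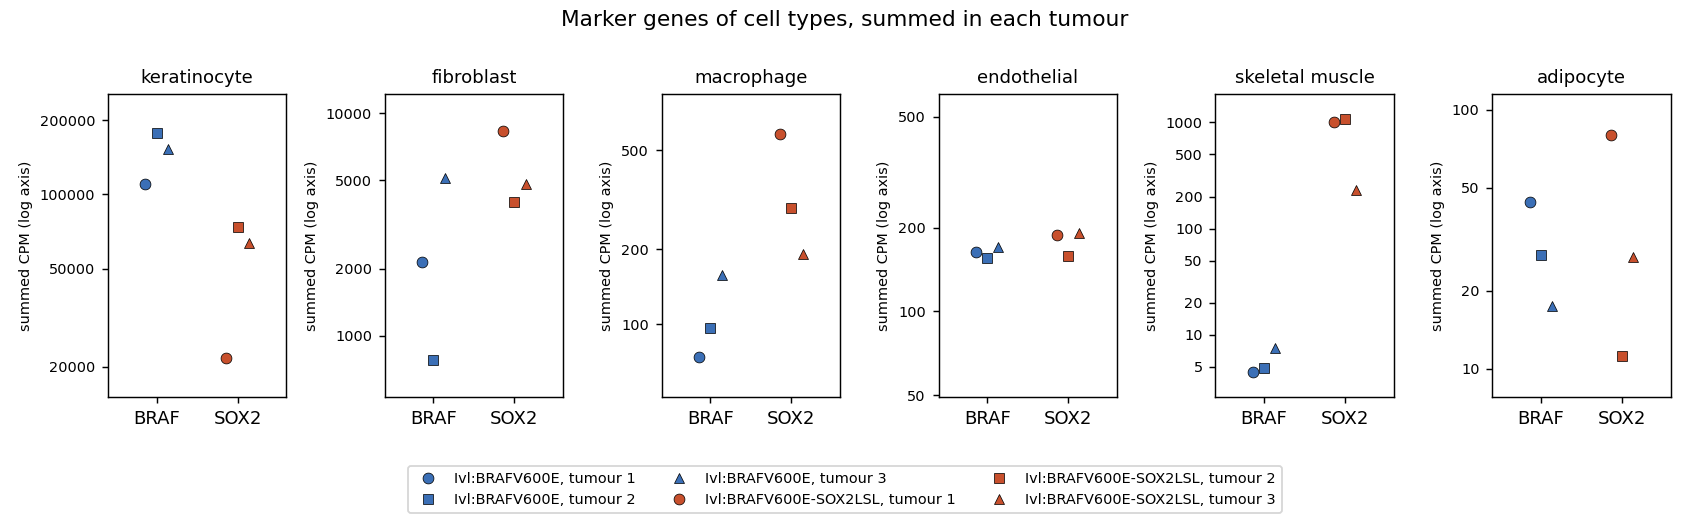
Summed CPM of the marker genes of 6 cell types in each tumour, on log axes whose range differs by panel, with BRAF for Ivl:BRAFV600E and SOX2 for Ivl:BRAFV600E-SOX2LSL. Macrophage and skeletal muscle sums lie higher and keratinocyte sums, made up mostly of abundant keratins, lower in every SOX2LSL tumour, and endothelial sums overlap.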

How the data were processed

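Total RNA of frozen tumours was depleted of ribosomal RNA and sequenced as read pairs. Per the labels and the methods of the study, the authors checked reads with FastQC 0.11.8, trimmed them with Trim Galore, aligned them to GRCm38 with HISAT2 2.1.0 and counted them per gene with featureCounts (Subread 1.6.3), and the deposited values are raw counts. Strand and multi-mapping settings are not given in the sources used here. The labels give 4 Ivl:BRAFV600E and 3 Ivl:BRAFV600E-SOX2LSL samples, and the table has 7 columns. In each group 3 columns could be placed by their names and the list of mice that accompanies the study, and 1 column was not used because its group was uncertain. Tumours were numbered in column order. Nothing states separate litters, so p-values measure the spread between these tumours.

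A gene was tested if 1 tumour or more held 5 of its reads or more, with edgeR 4.0.16 (R 4.3.3; quasi-likelihood test, TMM scaling, genotype as the factor, Benjamini-Hochberg over all genes, threshold 0.05). CPM are after TMM scaling. Levels per kilobase used the union of annotated exons (GENCODE M21). Log2 ratios and shares were compared with exact two-sided permutation tests over all splits of the tumours. The Benjamini-Hochberg adjustment of their p-values used SciPy 1.17.1. Alternatives were DESeq2 1.42.0, limma-voom (limma 3.58.1), other scalings and filters, sex as a covariate, the longest transcript as gene length and leaving out each tumour. The fits were also run on simulated counts in which 200 genes were changed and all genes shared the same relative spread between tumours. There edgeR called 162 genes, 7 of them wrongly, DESeq2 called 168 with 12 wrong, and limma-voom called 154 with 3 wrong. No simulated tumour was made to stand apart, so these error counts need not hold for the tumours here. Beside the 10 genes, the text names, of each list, the called genes (up to 4 with the smallest p) or, with none called, the 2 with the highest mean CPM, and marks genes picked later from their values. The genes and lists were chosen with earlier results of these data known. The values of 1 antagonist gene are not reported here.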

Additional observations from a re-analysis of the deposited data

How the results depend on the processing

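The count of genes called moved with the tool and the design. It was 954 with edgeR, 3653 with DESeq2, 1759 with no filter on low counts, 228 with sex as a covariate and 22 to 1575 when a tumour was left out (22 without Ivl:BRAFV600E tumour 1, 50 without tumour 2, 179 without tumour 3, and 1575, 202 and 412 without SOX2LSL tumours 1, 2 and 3). Of the 10 genes, 1 was called by edgeR, 3 by DESeq2, 2 with no filter, 0 by limma-voom, 0 with sex as a covariate and 0 to 2 when a tumour was left out. The log2 fold change of Inhbb was -0.0192 with upper-quartile scaling, -0.0593 with sex as a covariate and -0.33 to 0.27 when a tumour was left out. That of Gdf15 was 0.0649 with limma-voom, 0.25 with sex as a covariate and -0.83 to 0.42 when a tumour was left out, and filterByExpr did not keep it. The log2 difference of the ratio of both activin subunits to Fst, -0.22, ranged from -0.78 to 0.32 when a tumour was left out and turned positive without Ivl:BRAFV600E tumour 2 or SOX2LSL tumour 1. The differences in share ranged from -0.34 to 10.7 percentage points for Tgfb1 from -6.54 to 2.98 for Tgfb3, from -12.2 to -0.68 for Bmp7 (-0.68 without SOX2LSL tumour 3) and from 6.88 to 18.0 for Bmp2. The cause was not tested. The other 8 genes kept the sign of their log2 fold change in all 13 alternatives. No paired analysis was possible because the columns carry no replicate numbers that match the labels. Depth limited Gdf15, with 1 to 13 reads per tumour.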
